A study of Mus musculus with 8 samples.

Results

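The transcripts of 10 genes of the granule membrane and of regulated exocytosis were followed in mouse pituitary neuro-intermediate lobes: Ptprn, Ptprn2, Cadps, Cadps2, Snap25, Stx1a, Vamp2, Syt1, Syt4 and Syt7. They were chosen by name, with earlier results of these data known, and looked up by the gene symbols of the FPKM table. They were joined by Ensembl identifier to the count table, which lists 48526 genes, and all 10 of 10 were found. The neuro-intermediate lobe joins the intermediate lobe, whose melanotropes make POMC, to the posterior lobe. RNA, depleted of ribosomal RNA by the labels but prepared with an mRNA kit by the study's methods, was sequenced in 4 groups of 2 libraries, each library from a pool of 5 lobes of C57B6 mice, which by the study's methods were 3-month-old males. The WT lobes carried no transgene. The ACreb3l2 lobes carried POMC_ACreb3l2, the AXBP1 lobes carried POMC_AXBP1, and the ACreb3l2_AXBP1 lobes, also called those with both, carried the 2 together. Each transgene encodes a dominant negative protein, in which an acidic stretch takes the place of the DNA-binding basic region of the bZIP factor Creb3l2 or XBP1. A rat POMC promoter drives them, which the study describes, from earlier work, as specific to melanotropes. The proteins are therefore expected in POMC cells, though where they were made was not measured here. The pituicytes, vessels, nerve endings and macrophages of the dissected lobe are in the same RNA. The comparisons ask how the 10 transcripts differ when Creb3l2, XBP1 or both are blocked.

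Melanotropes store α-MSH and other peptides cut from POMC in dense-core granules and release them when calcium enters. A granule that has matured carries the receptor phosphatase-like proteins Ptprn and Ptprn2 in its membrane, is primed at the plasma membrane by Cadps or Cadps2, and fuses when the granule SNARE Vamp2 zips up with Snap25 and Stx1a. Synaptotagmins sense the calcium: Syt1 is the fast sensor, Syt7 has a higher affinity for calcium and acts more slowly, and Syt4 binds calcium poorly and is known as a modulator of peptide release.

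Total counts ran from 28256086 to 37988912 per library, and the 10 genes held 0.249 to 0.325% of them. Values are CPM, counts scaled to the library size after TMM normalization, and a gene is called where edgeR's quasi-likelihood test gave a Benjamini-Hochberg adjusted p under 0.05 over the 15580 genes tested, all 10 among them. CPM give a transcript's share of the lobe RNA, not an amount per lobe or per cell. The study reported less total RNA in transgenic lobes, with a synergistic effect of the transgenes together. Falls and rises below are therefore in that share. The libraries of a group are separate pools of lobes, so p-values measure the spread between pools. Creb3l2 itself lay at 869 and 884 CPM in the WT pair, 825 and 838 in the libraries labelled ACreb3l2, 580 and 703 in the AXBP1 pair and 433 and 653 with both transgenes. Xbp1 lay at 366 and 414, 282 and 284, 384 and 427, and 396 and 543 CPM in the same order. The constructs hold coding sequence from the leucine zipper on, and reads from it were not separated here and would add to these counts. Neither gene lay above the WT range in both libraries of its own transgene alone: Creb3l2 was below WT in ACreb3l2 and lower still with both, and Xbp1 overlapped WT in AXBP1. These counts therefore do not check the labels, and the groups are named as labelled. The study measured transgene transcripts separately, by RT-qPCR, and those values are not used here.

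The region before the start site is shown for 3 genes, since Creb3l2 and XBP1 bind DNA at sites with an ACGT core. Cadps is shown as a gene called lower with both transgenes, Cadps2 as its paralog that was not called, and Syt1 as the sensor whose CPM was not lower in any transgenic group. Each line holds the 250 bases before the start site from RefSeq on GRCm38.p6, 5′ to 3′ on the gene's own strand, with ACGT, CCACG or its reverse complement CGTGG in capitals.
Cadps, chr14:12823080-12823329, minus strand: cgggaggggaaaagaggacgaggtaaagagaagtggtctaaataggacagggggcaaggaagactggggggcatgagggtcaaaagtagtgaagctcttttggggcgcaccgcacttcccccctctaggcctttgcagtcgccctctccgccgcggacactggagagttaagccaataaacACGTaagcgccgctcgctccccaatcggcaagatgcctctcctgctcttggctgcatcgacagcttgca
Cadps2, chr6:23839422-23839671, minus strand: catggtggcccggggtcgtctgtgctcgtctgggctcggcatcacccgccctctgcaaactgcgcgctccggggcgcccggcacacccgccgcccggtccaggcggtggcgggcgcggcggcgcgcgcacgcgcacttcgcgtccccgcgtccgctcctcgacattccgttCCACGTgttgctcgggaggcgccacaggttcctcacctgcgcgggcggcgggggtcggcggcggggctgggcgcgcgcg
Syt1, chr10:109010976-109011225, minus strand: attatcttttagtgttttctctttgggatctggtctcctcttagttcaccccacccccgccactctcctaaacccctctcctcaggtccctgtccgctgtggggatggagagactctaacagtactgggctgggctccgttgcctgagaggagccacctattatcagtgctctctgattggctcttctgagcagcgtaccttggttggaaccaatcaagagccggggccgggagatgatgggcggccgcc
ACGT began 69 bases before the start site in Cadps and 77 before it in Cadps2, where it overlaps CCACG, and the Syt1 window held neither. The 6 genes with a window in the table used here have 8, of which 3 had ACGT (Ptprn2 at 58 bases before the start is the third), 4 had CCACG on either strand and 0 had TGACGTCA. Over all 32851 windows of this length the shares were 26.9%, 28.3% and 1.55%. Windows of Snap25, Vamp2, Syt4 and Syt7 are not used here. A match describes letters in a window and is not evidence of binding.

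The WT lobes gave the order of the levels per transcript length. Snap25 was highest, at 221.8 FPKM ± 6.99 (SD, n = 2), followed by Ptprn2 at 174.5 ± 21.3, Ptprn at 172.0 ± 32.0 and Syt4 at 155.9 ± 19.1. The libraries of the last 3 overlapped, from 142.4 to 194.6, so these 3 levels were not separated. Below them stood Syt1 at 91.2 FPKM ± 7.99, Cadps2 at 58.8 ± 9.32, Vamp2 at 29.8 ± 3.68 and Syt7 at 21.6 ± 2.11. Stx1a, at 4.77 FPKM ± 0.785, and Cadps, at 3.81 in each library, were lowest. Among these lower 6 genes no WT library of one overlapped those of the next. Among 14027 protein-coding genes tested the 10 ranged from rank 189 (Snap25) to rank 10069 (Cadps), so the SNARE partners Snap25 and Stx1a differed 47.0-fold ± 6.29 in FPKM within the same lobes.

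**Figure D1:**
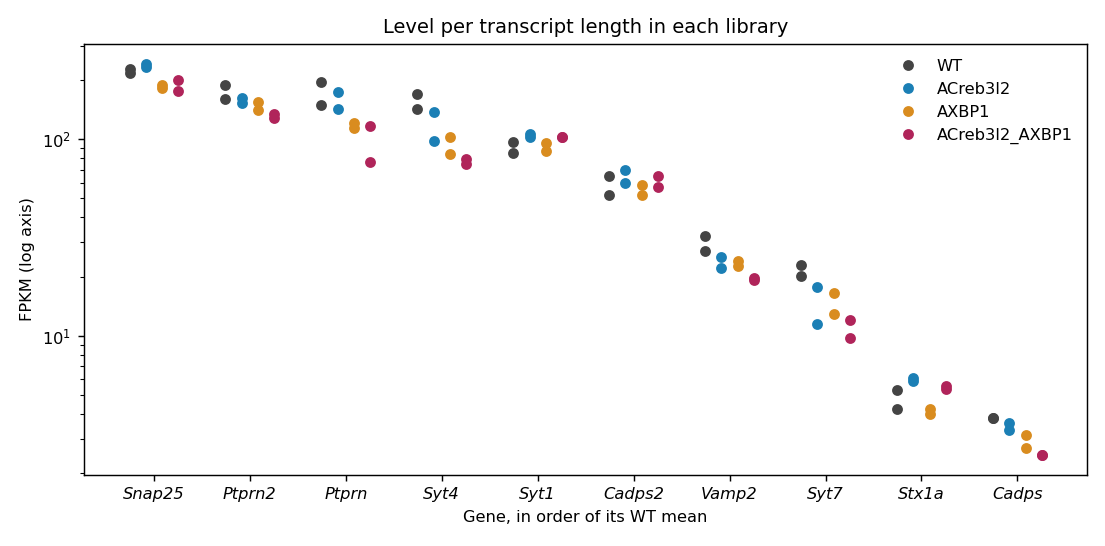
FPKM of each gene (log axis) in each of the 8 libraries, coloured by group and ordered by the WT mean. Snap25, Ptprn2, Ptprn and Syt4 form the upper end in WT, Syt1 lies above Syt4 in both ACreb3l2_AXBP1 libraries, Stx1a and Cadps lie under 7 FPKM in every library, and Syt4, Syt7 and Vamp2 lie lower in both ACreb3l2_AXBP1 libraries than in WT.

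With both factors blocked, Syt4, Syt7, Cadps and Vamp2 fell, Syt4 and Syt7 to 0.505 and 0.514 of WT, and Cadps and Vamp2 to 0.662 and 0.67. These are a peptide-release modulator, a slow calcium sensor, a priming factor and the granule SNARE. No gene of the 10 was called higher. The 4 calls of 10 stand beside 10.1% of all tested genes called in this comparison, 6.99% lower and 3.06% higher. The 10 were chosen with earlier results of these data known, so a share above that of all genes is not evidence about the set. DESeq2 called 5 of 10, Ptprn2 added, beside 13.1% of all tested genes, and at an unadjusted edgeR p under 0.05 there were 7 of 10, beside 29.7%. With library sizes in place of TMM, a scaling that moved the median of all genes to 0.17, the 4 calls were Syt4, Syt7 and Vamp2 lower and Stx1a higher. The median change of the 10 was −0.48 on the log2 scale, against 0.01 over all tested genes. In 6 genes both ACreb3l2_AXBP1 libraries lay under both WT libraries, and in 2 genes they lay above, where 28.7% and 29.6% of all tested genes did so.

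**Figure D2:**
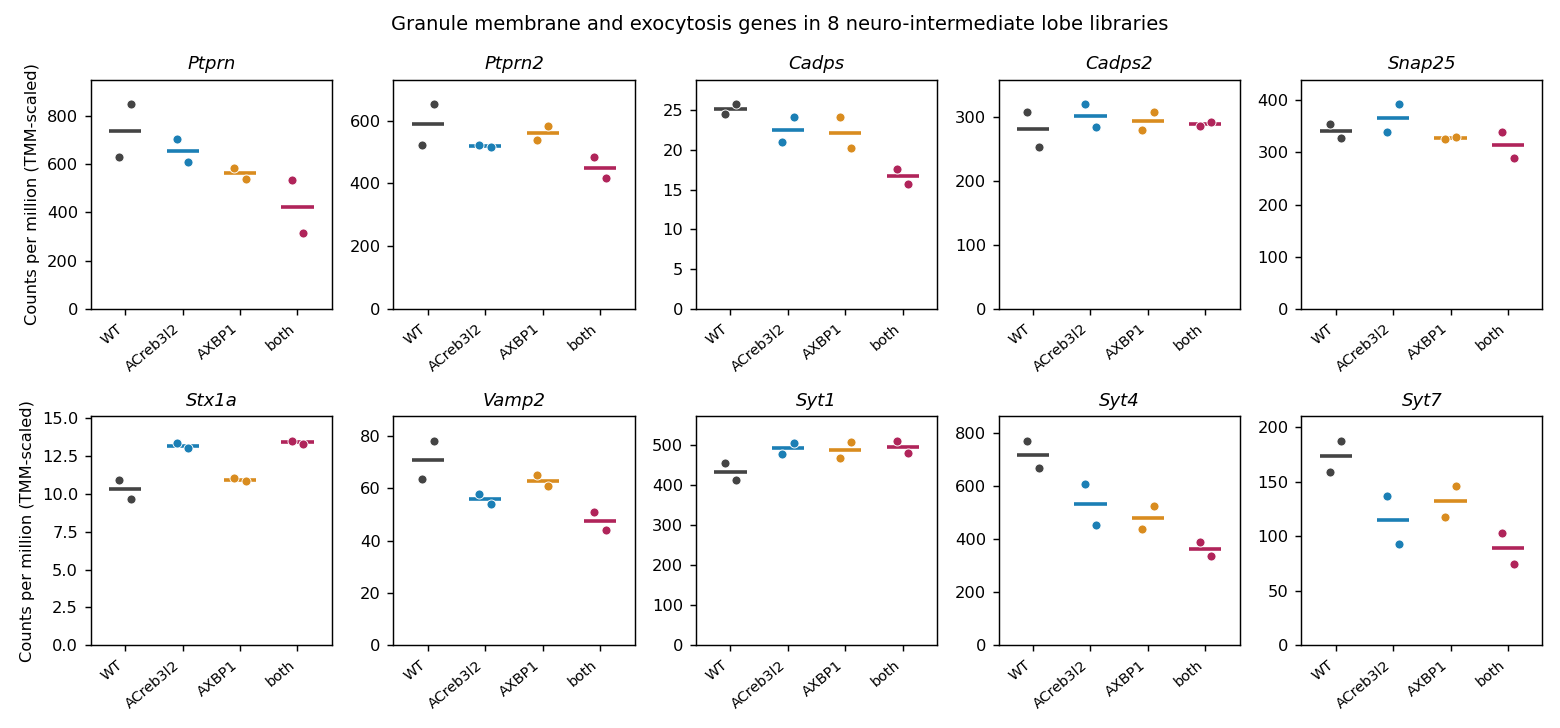
TMM-scaled CPM of the 10 genes in each library (points) with the group mean (line), where "both" stands for ACreb3l2_AXBP1. Syt4, Syt7, Cadps and Vamp2 lie lower in both ACreb3l2_AXBP1 libraries than in any other library of the plot except for Syt7, where 1 ACreb3l2 library, at 93.1, lies between them.

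Of the calcium sensors Syt4 and Syt7 were called and Syt1 was not. Syt4 (chr18:31437808-31447406, minus strand) was at 768.9 and 666 CPM in WT, 608.8 and 453.7 with ACreb3l2, 436.7 and 523.7 with AXBP1 and 389.7 and 334.6 with both. Every transgenic library lay below both WT libraries. The change in ACreb3l2_AXBP1 was −0.99 on the log2 scale (SE 0.158, 95% interval −1.34 to −0.63, adjusted p = 0.00818).

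Syt7 (chr19:10389090-10453180, plus strand) was at 159.4 and 187.5 CPM in WT, 136.6 and 93.1 with ACreb3l2, 117.6 and 146.6 with AXBP1 and 103.3 and 75.1 with both. All 6 transgenic libraries lay below WT here as well, and the ACreb3l2 libraries lay furthest apart. The change with both transgenes was −0.96 (SE 0.228, −1.50 to −0.42, adjusted p = 0.0444).

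Syt1 (chr10:108497650-109010982, minus strand), the fast sensor, had an estimate above 0 and no call. It was at 452.9 and 412.2 CPM in WT, 476.4 and 504.9 with ACreb3l2, 467.2 and 506 with AXBP1 and 508.9 and 479.8 with both, so that every transgenic library lay above WT. The change with both transgenes was 0.19 (SE 0.0919, −0.01 to 0.40, adjusted p = 0.192).

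Of the priming factors Cadps was called and Cadps2 was not. Cadps (chr14:12372563-12823079, minus strand) was at 24.6 and 25.7 CPM in WT, 20.9 and 24.1 with ACreb3l2, 24.1 and 20.2 with AXBP1 and 17.6 and 15.7 with both. The libraries with both transgenes were the lowest of the 8. Cadps fell by 0.60 on the log2 scale in ACreb3l2_AXBP1 (SE 0.123, −0.87 to −0.32, adjusted p = 0.0181), from 578 and 574 raw counts against 821 and 766 in WT. Its paralog Cadps2 (chr6:23262773-23839421, minus strand), the main form of the lobe, was at 308.6 and 254 CPM in WT and at 279.6 to 320.2 in the 6 transgenic libraries. WT overlapped every other group for Cadps2, and the change with both transgenes was 0.04 (SE 0.11, −0.20 to 0.29, adjusted p = 0.829).

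Among the SNAREs only the granule-side protein was called. Vamp2 (chr11:69088490-69092384, plus strand) was at 63.5 and 78.0 CPM in WT, 57.8 and 54.0 with ACreb3l2, 64.9 and 60.9 with AXBP1 and 50.7 and 44.1 with both. The ACreb3l2 and ACreb3l2_AXBP1 libraries lay below WT, and the AXBP1 libraries overlapped it. Vamp2 fell by 0.58 with both transgenes (SE 0.113, −0.83 to −0.33, adjusted p = 0.0148).

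Stx1a (chr5:135023482-135051100, plus strand), the syntaxin of the plasma membrane, was at 10.9 and 9.68 CPM in WT, 13.4 and 13.0 with ACreb3l2, 11.1 and 10.8 with AXBP1 and 13.5 and 13.3 with both. The 4 libraries with the ACreb3l2 transgene were the highest of the 8. Its change with both transgenes, 0.38 (SE 0.114, 0.12 to 0.63, adjusted p = 0.0623), was not called. Snap25 (chr2:136713453-136782428, plus strand) was at 354.8 and 327.7 CPM in WT, with all 8 libraries between 289.1 and 392.5, and its change with both transgenes was −0.12 (SE 0.106, −0.36 to 0.12, adjusted p = 0.478).

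The granule membrane proteins had estimates below 0 and no call in edgeR, and DESeq2 called Ptprn2. Ptprn (chr1:75247027-75264502, minus strand) was at 629 and 849.5 CPM in WT, 703.4 and 611.1 with ACreb3l2, 586.4 and 539.3 with AXBP1 and 533.7 and 314.1 with both. Its 2 libraries with both transgenes lay far apart, and the AXBP1 and ACreb3l2_AXBP1 libraries lay below WT. The change with both transgenes was −0.80 (SE 0.252, −1.40 to −0.21, adjusted p = 0.0884), and it stood at −0.48 (0.273) without ACreb3l2_AXBP1 replicate 2 and at −1.23 (0.00821) without replicate 1. Ptprn2 (chr12:116485720-117276849, plus strand) was at 523.1 and 652 CPM in WT, 522 and 514.8 with ACreb3l2, 538.5 and 582.5 with AXBP1 and 483.7 and 415.6 with both. The ACreb3l2 libraries lay just under the lower WT library and those with both transgenes further below, with a change of −0.39 (SE 0.12, −0.65 to −0.12, adjusted p = 0.0683) that was −0.22 (0.352) without WT replicate 2.

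The calls rest on 2 libraries a side, and with 1 left out the other is taken to vary like the remaining groups. Without the ACreb3l2_AXBP1 replicate 2 library none of the 10 was called, with adjusted p of 0.0934 for Syt4, 0.131 for Vamp2, 0.151 for Cadps and 0.257 for Syt7, and without WT replicate 2 only Syt4 was called (adjusted p = 0.0295), with Vamp2 at 0.0884, Cadps at 0.0904 and Syt7 at 0.226. Syt7 was also lost without WT replicate 1 (adjusted p = 0.0688) and without either AXBP1 library (0.0629), while Ptprn gained a call without ACreb3l2_AXBP1 replicate 1 and Ptprn2 without that library (0.0472) or WT replicate 1 (0.0243).

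**Figure D3:**
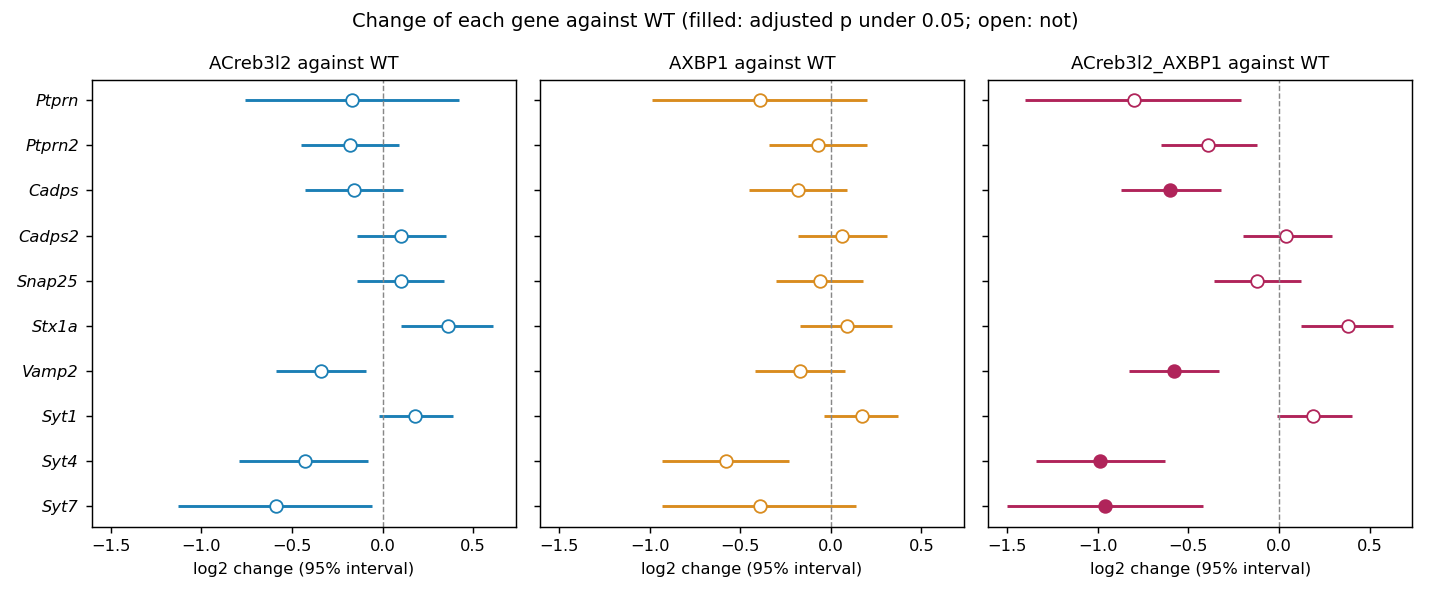
log2 change of each gene against WT (points) with its 95% interval (lines) for the 3 transgenic groups, where filled points have an adjusted p under 0.05. Filled points appear for Cadps, Vamp2, Syt4 and Syt7 in ACreb3l2_AXBP1, and the intervals of Cadps2 and Snap25 span 0 in all 3 panels.

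The single transgenes were set against the same WT libraries. With ACreb3l2 alone 0 of the 10 were called, where 3.04% of all tested genes were, 2.5% lower and 0.539% higher. At an unadjusted p under 0.05 there were 4 of 10, beside 16.8% of all tested genes, and DESeq2 called 2, Syt4 and Syt7, beside 4.82% of all tested genes. The 4 were Syt7 at −0.59 (SE 0.226, −1.13 to −0.06, adjusted p = 0.252), Syt4 at −0.43 (0.156, −0.79 to −0.08, 0.201), Vamp2 at −0.34 (0.112, −0.59 to −0.09, 0.157) and Stx1a at 0.36 (0.114, 0.10 to 0.61, 0.144). Both ACreb3l2 libraries lay under WT in 5 genes and above it in 2, where 23.2% and 22.3% of all tested genes did. Vamp2 reached a call when WT replicate 1 was left out (−0.48, adjusted p = 0.048) and stood at −0.18 (0.601) without WT replicate 2. Without ACreb3l2 replicate 1 and 2, Syt4 stood at −0.66 and −0.23 and Syt7 at −0.90 and −0.34, none of them called. The other changes lay between −0.18 (Ptprn2) and 0.18 (Syt1).

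With AXBP1 alone 0 of the 10 were called, and 0% of all tested genes were. At an unadjusted p under 0.05 there was 1 of 10, beside 9.97% of all tested genes, and DESeq2 called Syt4, beside 0.469% of all tested genes. Syt4 changed by −0.58 without a call (SE 0.157, −0.93 to −0.23, adjusted p = 0.474). Ptprn and Syt7 stood at −0.39 each (SE 0.251 and 0.226, adjusted p = 0.6 and 0.574), Ptprn at −0.16 without WT replicate 2 and Syt7 at −0.24 without AXBP1 replicate 1. The AXBP1 libraries lay under WT in 4 genes and above it in 1, where 23.8% and 22.3% of all tested genes did. The remaining 7 changes lay between −0.18 (Cadps) and 0.17 (Syt1).

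Set against each other, the transgenic groups gave no call among the 10 in edgeR. Between ACreb3l2 and AXBP1, 0.719% of all tested genes were called, and at an unadjusted p under 0.05 it was 1 of 10 (Stx1a) beside 9.49%. Stx1a was 0.27 higher with ACreb3l2 than with AXBP1 (SE 0.114, 0.01 to 0.52, adjusted p = 0.495). For Syt4 the difference was 0.15 (−0.21 to 0.50) and for Syt7 −0.20 (−0.73 to 0.33), so either sign remained within the interval. DESeq2 called 0 of the 10, beside 1.66% of all tested genes.

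Adding ACreb3l2 to AXBP1 gave 6 of 10 at an unadjusted p under 0.05, beside 11.1% of all tested genes, with 0 called by edgeR, beside 0.623% of all tested genes, and 0 by DESeq2, beside 1.82%. These 6 were Vamp2 at −0.41 (SE 0.113, adjusted p = 0.19), Cadps at −0.41 (0.124, 0.232), Ptprn2 at −0.32 (0.12, 0.361), Syt4 at −0.41 (0.157, 0.379), Syt7 at −0.57 (0.227, 0.423) and Stx1a at 0.29 (0.114, 0.379). Adding AXBP1 to ACreb3l2 gave 3 of 10 at an unadjusted p under 0.05, beside 7.14%, with 0 called by edgeR and 0% over all tested genes. The 3 were Cadps at −0.43 (SE 0.123, adjusted p = 0.688), Syt4 at −0.55 (0.157, 0.688) and Ptprn at −0.63 (0.252, 0.688), and DESeq2 called Syt4, beside 0.231% of all tested genes.

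Departure from additivity was taken as the change with both transgenes minus the sum of the changes with each. None of the 10 was called, 0 had an unadjusted p under 0.05 (2.48% of all tested genes did), edgeR called 0% of all tested genes, and DESeq2 called 0 of the 10 and 0.0257% of all tested genes. The departure was 0.03 for Syt4 (−0.47 to 0.52), 0.03 for Syt7 (−0.73 to 0.78), −0.07 for Vamp2 (−0.42 to 0.28) and −0.25 for Cadps (−0.64 to 0.13). The interval for Syt7 holds values as large as its change with either transgene alone.

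Ratios of FPKM within a library do not depend on how libraries are scaled, and they show how the make-up of the 10 transcripts shifted. Syt4 was 1.75 and 1.67 times Syt1 in WT, 1.30 and 0.948 with ACreb3l2, 1.07 and 0.962 with AXBP1 and 0.774 and 0.734 with both. Per length, Syt4 thus led Syt1 in both WT libraries and Syt1 led Syt4 in both libraries with both transgenes. Syt7 was 0.207 and 0.27 times Syt1 in WT and 0.117 and 0.095 in ACreb3l2_AXBP1. Cadps2 exceeded Cadps 17.2-fold and 13.7-fold in WT and 23.2-fold and 26.2-fold in ACreb3l2_AXBP1. Snap25 over Vamp2 was 8.35 and 6.7 in WT, 9.32 and 11 with ACreb3l2, 7.58 and 8.31 with AXBP1 and 10.1 and 9.18 with both. Ptprn over Ptprn2 was 0.936 and 1.03 in WT and 0.873 and 0.597 in ACreb3l2_AXBP1. In each of these 5 ratios the ACreb3l2_AXBP1 libraries did not overlap WT. The same held for Snap25 over Stx1a, at 42.5 and 51.4 in WT and 37.2 and 31.9 with both. The share of all gene pairs that do so was not computed. Of single tested genes, 28.7% lay lower and 29.6% higher without overlap in this comparison. All but Ptprn over Ptprn2 and Snap25 over Stx1a include a gene called lower. With 2 libraries a side no exact test could reach 0.05, so the ratios are descriptions.

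**Figure D4:**
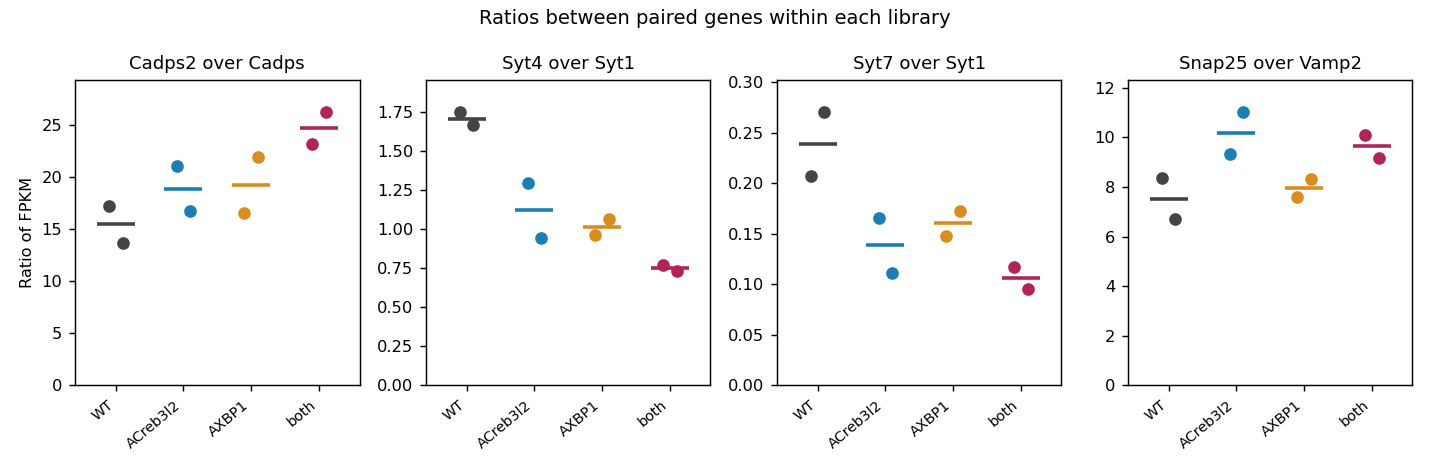
Ratio of FPKM between 2 genes in each library (points) with the group mean (line), where "both" stands for ACreb3l2_AXBP1. Syt4 over Syt1 goes from 1.67 and 1.75 in WT to 0.734 and 0.774 with both transgenes, and Cadps2 over Cadps from 13.7 and 17.2 to 23.2 and 26.2.

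Summed over the 10 genes the level was 3296 and 3462 CPM in WT, 3199 and 2945 with ACreb3l2, 2852 and 3029 with AXBP1 and 2727 and 2274 with both. Within that sum Syt4 held 19.2 to 23.3% in WT and 14.3 to 14.7% with both transgenes, while Syt1 held 11.9 to 13.7% and then 18.7 to 21.1%. A share can rise because other members of the sum fall, and Syt1 itself was not called. Cadps2 and Snap25, also not called, went from means of 8.35 and 10.1% in WT to 11.7 and 12.6%. These shares take no account of transcript length.

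For each called gene the 2 most alike of 14026 protein-coding genes were sought, by the root mean square difference of log2 CPM, centred on each gene's mean, over the 8 libraries. For Syt4 they were Slc23a2 (0.0895) and Slc38a1 (0.0955), a vitamin C and a glutamine transporter, against a spread of Syt4 itself of 0.381. Syt7 was matched by Lrfn2 (0.0865) and Cdr2l (0.0905), Cadps by Ccdc84 (0.0743) and Slc4a10 (0.0763), and Vamp2 by Lmf2 (0.0517) and Nckipsd (0.0534). These are descriptions over 8 libraries that share their groups.

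Other genes of the machinery were read from lists of partners, also chosen with earlier results of these data known. Of 23 tested SNARE and fusion partners, 2 were lower and 2 higher with both transgenes, beside 6.99% lower and 3.06% higher over all tested genes. Napa and Napb, the α- and β-SNAP proteins that work with NSF to take spent SNARE complexes apart, fell by 0.52 (SE 0.113, adjusted p = 0.0215) and 0.65 (0.139, 0.0217). The syntaxin Stx2 rose by 0.42 (0.11, 0.0401), and Cplx2, a complexin that clamps SNARE complexes, by 0.43 (0.12, 0.0497). All 4 were lost without WT replicate 2 (adjusted p from 0.126 for Napb to 0.262 for Cplx2) and without ACreb3l2_AXBP1 replicate 2 (from 0.115 for Napb to 0.257 for Stx2).

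Of 30 docking and priming genes 1 was lower and 3 were higher, 4 in all where 10.1% of all tested genes were called. The granule GTPase Rab3d fell by 0.92 (SE 0.17, adjusted p = 0.0166), from 81.2 and 122 CPM in WT to 57.0 and 50.3. Rph3a, which binds Rab3, rose by 0.96 (0.212, 0.0288), the Rab27 effector Sytl2 by 1.48 (0.359, 0.0385) and the Munc13 family member Unc13b by 0.27 (0.0734, 0.0446). Sytl2 was low throughout, at 3.41 and 1.88 CPM in WT and 4.91 and 9.95 with both transgenes. Rab3d was lost without ACreb3l2_AXBP1 replicate 2 (adjusted p = 0.153) and stood at −0.60 (0.0281) without WT replicate 2, and the 3 higher genes were lost without either library, Sytl2 with adjusted p of 0.235 (change 0.87) without the former and 0.192 without the latter.

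Of the 11 other synaptotagmins tested 1 was called, a share near the 10.1% of all tested genes. Syt13, which lacks calcium binding, fell by 1.16 (SE 0.231, adjusted p = 0.0274), from 208 and 214 CPM to 118 and 71.1. It was lost without WT replicate 1 (adjusted p = 0.0642) or WT replicate 2 (0.148) and kept without ACreb3l2_AXBP1 replicate 2 (0.0396).

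Of 30 granule membrane and biogenesis genes 7 were lower and 0 higher in edgeR, beside 6.99% and 3.06% of all tested genes, with 7 and 2 in DESeq2 and 5 and 3 with library sizes in place of TMM. The 3 with the lowest p were Pick1 at −0.63 (SE 0.124, adjusted p = 0.0158), Ica1 at −0.99 (0.187, 0.0195) and Hid1 at −1 (0.193, 0.0216). Pick1 and Ica1 form a BAR domain pair of budding granules, and Hid1 is needed for granules to mature at the Golgi. Pick1 shares 1222 exon bases with an overlapping gene of the same strand, so its count is uncertain. Without WT replicate 2 none of the 7 was called, with Pick1 at 0.0957, Hid1 at 0.104 and Ica1 at 0.109, and without ACreb3l2_AXBP1 replicate 2 only Ica1 was (0.0463). The list held a median of −0.21, against 0.01 over all tested genes.

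Of the 11 granule contents 1 was called by edgeR, beside 10.1% of all tested genes, and this was Scg2, at −0.57 (SE 0.128, adjusted p = 0.0253). DESeq2 called 4 lower, beside 13.1% of all tested genes. With no filter 8 were lower, where 3209 of 29547 genes were called. All 11 estimates were below 0, and the median was −0.44, against 0.01 over all tested genes. Pomc and Pcsk2 are in this list and also among the melanotrope markers below, so the lists are not separate observations. Without ACreb3l2_AXBP1 replicate 1 the median was −0.72 with 7 lower calls, without ACreb3l2_AXBP1 replicate 2 it was −0.29 with 1 call, which was not Scg2, and without WT replicate 2 it was −0.33 with 0. Of 15 voltage-gated calcium channel subunits 0 were called by edgeR, where 10.1% of all tested genes were, 1 had an unadjusted p under 0.05, where 29.7% did, and the median was 0.06.

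Together these lists, outside the granule contents, gave 11 lower and 5 higher calls among 109 tested genes, beside 6.99% and 3.06% of all tested genes. Of these 16 calls 2 were kept without ACreb3l2_AXBP1 replicate 2 (Ica1 and Syt13), 1 without WT replicate 2 (Rab3d), 7 without either AXBP1 library, 9 without WT replicate 1, 10 without ACreb3l2_AXBP1 replicate 1 and 11 without either ACreb3l2 library, and Scg2 was lost without WT replicate 2 (adjusted p = 0.105), ACreb3l2_AXBP1 replicate 2 (0.168) or an AXBP1 library (0.0519 and 0.0512). With library sizes in place of TMM the split of 11 lower and 5 higher became 10 lower and 12 higher, and a fit of only these 2 groups gave 4 and 1. Limma on log2(FPKM + 0.1) gave 10 and 1, and limma on all genes above 0 FPKM gave 5 and 0. DESeq2 gave 16 and 6, beside 13.1% of all tested genes, and no filter gave 21 and 8, where 3209 of 29547 genes were called.

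With ACreb3l2 alone these lists gave 5 lower and 1 higher call among 109 genes outside the granule contents, beside 2.5% lower and 0.539% higher over all tested genes: Napb at −0.64 (adjusted p = 0.0435), Rab3d at −0.81 (0.0449), Pick1 at −0.63 (0.0248), Ccdc186 at −0.45 (0.0424) and Myrip at −0.41 (0.0465) were lower, and the active zone protein Rims1 was higher at 0.62 (0.0306). All 6 were lost without WT replicate 2, without ACreb3l2 replicate 1 or 2, or without either AXBP1 library, 3 were kept without WT replicate 1 and 4 without either ACreb3l2_AXBP1 library, and library sizes alone gave 2 lower and 0 higher. DESeq2 gave 7 lower and 2 higher with ACreb3l2 alone, beside 4.82% of all tested genes. AXBP1 alone gave 0 in edgeR, with 14 of 109 at an unadjusted p under 0.05, beside 9.97% of all tested genes. DESeq2 gave 1 lower call there, beside 0.469% of all tested genes. With no filter AXBP1 alone gave 4 lower and 6 higher, where 628 of 29547 genes were called.

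**Figure D5:**
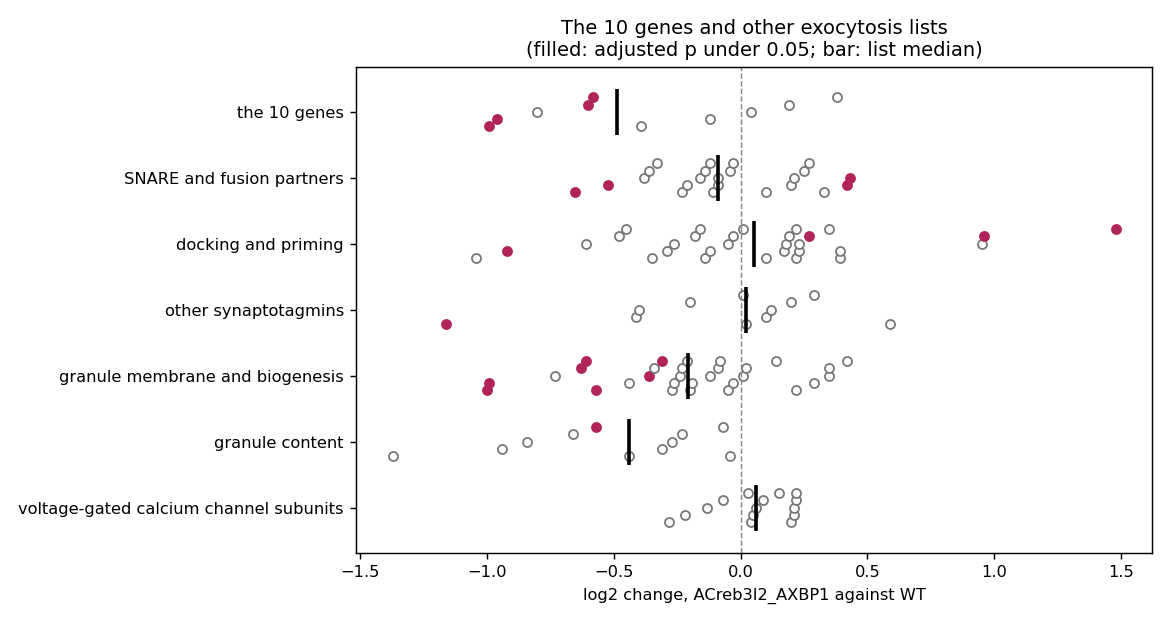
log2 change of each tested gene in ACreb3l2_AXBP1 against WT (points) by list, where filled points have an adjusted p under 0.05 and bars mark the list median. The 10 genes have a median of −0.48, the granule contents −0.44 and the granule membrane and biogenesis list −0.21, while the calcium channel subunits lie close to 0.

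Markers of the cells in the lobe were read beside these results. With both transgenes 2 of 43 tested markers were called, beside 10.1% of all tested genes, and 9 had an unadjusted p under 0.05, beside 29.7%. Melanotrope markers (Pomc, Pcsk2, Tbx19, Pax7 and Drd2, none at 0) had a median change of −0.66 with both transgenes, with 5 of 5 below 0 and Tbx19 called (−0.88, adjusted p = 0.0245, but 0.0512 and 0.147 without WT replicate 1 or 2 and 0.0837 without ACreb3l2_AXBP1 replicate 2), and their summed level was 111414 to 166491 CPM in WT, 110316 to 123161 in ACreb3l2, 102276 to 120022 in AXBP1 and 66134 to 89893 in ACreb3l2_AXBP1. The median was −0.33 without WT replicate 2, −0.35 without ACreb3l2_AXBP1 replicate 2 and −1.07, with 3 calls, without ACreb3l2_AXBP1 replicate 1. Pomc, at 106613 and 159607 CPM in WT, made up most of the summed level. Pax7 (−0.08) and Drd2 (−0.19) were nearer 0 than Pomc (−0.84, adjusted p = 0.0614). The 7 pituicyte and astroglial markers had a median of 0.42 (1 called, Aqp4, which rose by 0.51, adjusted p = 0.0464, but 0.242 without WT replicate 2 and 0.336 without ACreb3l2_AXBP1 replicate 2, with a summed level of 473 to 561 CPM in WT and 550 to 631 with both transgenes) and the 7 endothelial markers a median of 0.56 (0 called by edgeR, 2 at an unadjusted p under 0.05; 163 to 205 against 234 to 289 CPM). The other medians were 0.25 for fibroblasts and pericytes, −0.10 for macrophages and microglia, −0.09 for anterior lobe cells and −0.02 for hypothalamic neurons. With ACreb3l2 alone the melanotrope median was −0.25 and the pituicyte median 0.46, with 7 of 7 above 0 and a summed level of 536 to 653 CPM. With AXBP1 alone the melanotrope median was −0.24, the endothelial median 0.42 (7 of 7 above 0; 221 to 276 CPM), the fibroblast and pericyte median 0.28 (7 of 7; 972 to 1115 against 746 to 963 CPM) and the anterior lobe median −0.61 (5 of 6 below 0; 2359 to 2409 against 4604 to 6999 CPM). Most of the anterior lobe sum was Gh, at 3568 and 6032 CPM in WT and 1533 and 1961 with AXBP1. The melanotrope medians turned on the WT libraries, at −0.49 and 0.07 with ACreb3l2 and −0.51 and 0.10 with AXBP1 without WT replicate 1 and 2. In edgeR 0 of the 43 markers were called with either transgene alone, and 5 with ACreb3l2 and 6 with AXBP1 had an unadjusted p under 0.05, beside 16.8% and 9.97% of all tested genes. Fewer melanotropes and less of a transcript per melanotrope cannot be told apart in lobe RNA, and the part of the markers in the changes of the 10 genes was not tested.

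Overlapping genes held few reads beside those of the 10. Ptprn, Syt4 and Syt7 share 189, 566 and 384 exon bases with a noncoding gene of the opposite strand, whose total counts were 269, 277 and 149 against 153634, 135470 and 32831 for the genes themselves. Whether counting used strand is not given in the sources used here.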

How the data were processed

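RNA of 8 pooled neuro-intermediate lobe samples was sequenced as 50 base paired ends. The authors deposited raw counts per Ensembl gene; by the study's methods reads were trimmed with Trimmomatic, aligned to mm10 with Tophat and counted with HTSeq-count, though a software list also names STAR. The authors also deposited FPKM values, with cufflinks listed as software. The annotation release and the strand setting are not given in the sources used here. FPKM of 51 genes split over loci were summed.

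Groups came from the labels. Genes with a mean size-factor scaled count above 20 were fitted in edgeR 4.0.16 (R 4.3.3) with TMM factors of 0.913 to 1.10, robust dispersions, 1 mean per group over all 8 libraries and no covariate, and p-values were adjusted over 15580 genes. Intervals are 95%. Alternatives were other normalizations and filters, a replicate block, single libraries left out, DESeq2 1.42.0, and limma 3.58.1 on log2(FPKM + 0.1) or log2(FPKM + 1). The scripts were tested on simulated data.

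The 10 genes, lists, markers and motifs were chosen with earlier results of these data known. Named genes were the 10, up to 3 called genes each way per list and comparison by lowest p, and the 2 most alike genes for each called one. Gene positions are those of GENCODE on mm10, and promoters those of RefSeq on GRCm38.p6, read without the transcribed part. Replicates of a group differed beyond counting noise (chi-square per degree of freedom 10.7 to 48.5).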

Additional observations from a re-analysis of the deposited data

How the results depend on the processing

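The count of 4 called genes in ACreb3l2_AXBP1 against WT was 4 with DESeq2 size factors, library sizes alone, only these 2 groups or limma on log2(FPKM + 0.1) and log2(FPKM + 1), 3 with filterByExpr, 6 with no filter, 5 in DESeq2, and 0 in limma on all genes above 0 FPKM. With 1 library left out it ran from 0 to 6. With a replicate block it was 3 (Syt7 lost, adjusted p = 0.0593), and with the numbers of ACreb3l2_AXBP1 crossed, an alternative chosen after seeing the data, it was 6; over all genes the calls were 1566, 1113 with the block and 3047 crossed. The block changed no other call among the 10 in any comparison, and of the 16 calls among the list genes it kept 10 in ACreb3l2_AXBP1, and 2 of the 6 in ACreb3l2. Deviations of same-numbered libraries from their group means correlated at −0.197 (WT with ACreb3l2_AXBP1) to 0.0887. These values give little sign that the numbers pair libraries, and a shared preparation was not tested. Cadps was also lost with library sizes alone (adjusted p = 0.0566) and Syt7 with filterByExpr (0.0515), and Stx1a was called with library sizes alone (0.54, adjusted p = 0.0374). In ACreb3l2 against WT the 0 became 3 with no filter and 2 in DESeq2, and 0 to 1 with a library left out. In AXBP1 against WT it became 3 with no filter and 1 in DESeq2. The 0 of ACreb3l2_AXBP1 against AXBP1 became 4 with no filter, and that against ACreb3l2 became 4 with no filter and 1 in DESeq2. The comparison of ACreb3l2 with AXBP1 and the departure from additivity stayed at 0 in every alternative run.

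Over all genes, calls in ACreb3l2_AXBP1 against WT ran from 215 without its replicate 2 to 3209 with no filter, and in ACreb3l2 against WT from 139 in limma on all genes above 0 FPKM to 1455 with no filter, beside 473. The median change of the 10 in ACreb3l2_AXBP1 went from −0.48 to −0.32 with library sizes alone, which moved the median of all genes to 0.17, and ran from −0.59 to −0.33 with a library left out. In ACreb3l2 it was −0.17 and ran from −0.26 to −0.02 with a library left out. In AXBP1 it was −0.12, ran from −0.22 (without WT replicate 1) to −0.09 with a library left out, was −0.05 with library sizes alone and became −0.30, −0.28 and −0.30 in the 3 FPKM fits, where the median of all genes moved to −0.16, −0.14 and −0.10. No estimate of a called gene changed sign. The cause of these differences was not tested.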
